A study of Mus musculus with 12 samples.

Results

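The 32 genes described here code for enzymes and membrane proteins of the lysosome, with progranulin and the transcription factor TFEB. They were matched by gene symbol in a table of read counts for 24415 genes, and each of the 32 symbols was found once. The table holds RNA sequencing of mouse whole bone marrow cells in 12 libraries and 3 groups of 4. All mice were C57BL/6J females, 8 weeks old by the labels. The first group had a flame burn and anti-G-CSF antibodies (replicates 9 to 12), the second a flame burn and an isotype antibody (replicates 5 to 8), and the third a sham injury and an isotype antibody (replicates 1 to 4). Dosing began 12 hours ahead of the injury, was repeated with it and on each following day, and the harvest fell on day 7. G-CSF is the cytokine that drives neutrophil production, and the antibodies are meant to neutralise it. A sham injury with anti-G-CSF antibodies was not analysed here, so an effect of the antibodies without a burn cannot be told apart from their effect after one.

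The lysosome is an acidic compartment in which proteins, sugar chains and lipids taken up by the cell or set free within it are broken down. Its soluble enzymes are sorted there through the Golgi, its highly glycosylated membrane proteins line the inner face, and a proton pump keeps it acidic. In bone marrow, macrophages use lysosomes to digest engulfed red cell nuclei and old cells, and neutrophil precursors build granules that hold some of the same enzymes. TFEB and its relatives TFE3, TFEC and MITF switch on many lysosomal genes through a short promoter element with the core TCACGTG.

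The libraries held 18780399 to 25708084 counts each. Of the 24415 genes 15283 had enough counts to be tested, and all 32 lysosomal genes were among them, with mean levels over the 12 libraries of 12.6 CPM for Gla to 2407 CPM for Psap. CPM are counts relative to the library size after TMM scaling, a factor that evens out differences in RNA makeup, and are not corrected for gene length. Of the marker genes of marrow cells, 13 erythroid, 15 neutrophil and 10 B cell genes had enough counts to be tested. Ly6g, the usual neutrophil surface marker, was not analysed here. The adult globin genes were an exception, with 0 counts for Hba-a1, Hbb-bs and Hbb-bt and 2 for Hba-a2 over all libraries. Genes of brain, heart and lens were also read, and the summed level of 18 brain genes was 1159 to 2120 CPM with anti-G-CSF, 651 to 1293 CPM in burn isotype and 790.4 to 911 CPM in sham marrow. Replicates 9 and 12 held the highest of these sums, so counts of calls with anti-G-CSF are also given without them. Such fits keep only replicates 10 and 11 of that group, so fewer calls can also come from fewer libraries. Replicate 5 also stood apart, as the highest burn isotype library for 30 of the 32 lysosomal genes, and replicate 7 as the lowest for 28. Since no label states 1 mouse per library, the p-values reflect only how much these 12 libraries vary, and part of that variation may be technical.

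Of the 32 genes 28 had a RefSeq promoter window, taken as 250 bases before to 50 bases after the start of the gene on GRCm38.p6. Ctsb, Ctsh, Asah1 and Npc1 had none. TCACGTG, read on both strands, occurred in the windows of 8 of these 28 genes (28.6%), against 4.29% of all 27025 genes with a window. The shorter palindrome CACGTG, which lies inside every TCACGTG, occurred in 9 of 28 (32.1%), against 8.09% of all genes with a window. The 8 genes with TCACGTG were Lamp1, Mcoln1, Gla, Ctsd, Ctsa, Glb1, Naglu and Sgsh, and Ctsl had CACGTG alone. Their stretches are shown because they carry the element by which TFEB is known to act, and Lamp1 is shown first since it holds 4 copies within 73 bases. Capitals mark each match to TCACGTG or its reverse complement CACGTGA, or both where they overlap.
Lamp1, chr8:13159088-13159160, plus strand: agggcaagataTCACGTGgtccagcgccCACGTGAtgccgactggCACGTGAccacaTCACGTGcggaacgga
Mcoln1, chr8:3500436-3500491, plus strand: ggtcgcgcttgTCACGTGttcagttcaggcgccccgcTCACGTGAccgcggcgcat
Gla, chrX:134601182-134601244, minus strand: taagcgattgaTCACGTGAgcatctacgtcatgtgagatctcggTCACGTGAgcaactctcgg
Ctsd, chr7:142387908-142387937, minus strand: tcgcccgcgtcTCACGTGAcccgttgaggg
Ctsa, chr2:164833749-164833772, plus strand: tgagcaaactgTCACGTGAtgcag
Glb1, chr9:114401018-114401047, plus strand: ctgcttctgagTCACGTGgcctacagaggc
Naglu, chr11:101070009-101070038, plus strand: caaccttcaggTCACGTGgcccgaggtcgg
Sgsh, chr11:119355522-119355551, minus strand: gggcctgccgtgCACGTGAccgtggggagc
The last Lamp1 copy began 15 bases before the annotated start, the Ctsa copy shown 12 bases before and the Sgsh copy 29 bases before. Mcoln1 and Gla held 2 copies each in the stretches shown. Ctsd held another, not shown, 245 bases before the start, and Ctsa another, not shown, 5 bases after the start.

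Per length, Psap was the most abundant of the 32 genes in all 3 groups, at 741, 1052 and 838 CPM per kilobase of exon in burn marrow with anti-G-CSF, burn isotype marrow and sham marrow. Psap codes for prosaposin, the precursor of the saposins, small proteins that present lipids to lysosomal enzymes. The aspartic protease cathepsin D (Ctsd) was the second in each group, at 269.7, 342 and 315 CPM per kilobase, and the cysteine protease cathepsin S (Ctss) was the third, at 219, 286 and 220.3 CPM per kilobase. Sgsh, Gla and Mcoln1 held the last 3 places in each group. Tfeb itself ranked between 24 and 26. Exon lengths came from the GENCODE annotation (release M21), in which some members share exon bases with a neighbour: Ctsd shares 34.4% of its exon bases with Gm49369 on the same strand, and Ctsl 26.8% with the antisense gene Gm47123. Sgsh shares 21.6% with Card14, Hexa 12.8% with Tmem202, Ctsb 12.8% with Fdft1, Ctsa 10.5% with Pltp and Lamp1 9.31% with Grtp1, all on the opposite strand. Glb1 shares 5.49% with Tmppe and Ctsl 6.09% with the pseudogene Gm49230, both on the same strand. Npc1, Grn and Ctsz share smaller parts with genes on the opposite strand. How the authors' counting treated strand and shared bases is not given in the sources used here. The levels of all these genes are uncertain to that extent.

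After a burn, a limited set of the lysosomal genes rose relative to sham marrow, each by less than a doubling. Lamp2, a heavily glycosylated protein of the lysosomal membrane needed for autophagy, rose most, to 425 ± 60.3 CPM in burn isotype marrow, against 252 ± 25.3 CPM in sham marrow (SD, n = 4 each), a 1.69-fold difference. The sugar-cleaving enzymes Gusb, Hexa, Gla and Neu1 rose too, as did acid ceramidase (Asah1), the proton pump subunit Tcirg1, progranulin (Grn) and the protective protein cathepsin A (Ctsa). No lysosomal gene fell. Thus 9 of 32 (28.1%) passed an adjusted p of 0.05 upward in edgeR's quasi-likelihood test, where 11.1% of all 15283 genes rose, and 0 passed downward, where 9.92% of all genes fell (21% in either direction).

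The other 23 genes did not pass, though the estimates of 29 of the 32 were above 0. The median log2 fold change of the 32 genes was 0.21, against 0 over all genes tested, and the range was -0.24 for Ctsb to 0.75 for Lamp2. By complete separation, 6 genes had every burn isotype library above every sham library, where 12.9% of all genes did, and 1 gene, Ctsb, had every one below, where 11.8% did. Among the 9045 genes at least as abundant as Gla the share called higher was 16.8% and lower 13.7%. Asah1, Gusb, Hexa, Lamp2 and Tcirg1 passed under all 21 alternative fits. Without replicate 5 the count was 5 genes and the median 0.13, without sham replicate 3 or 4 it was also 5, and without replicate 7 it was 14. All genes called higher in these fits were 1275 of 15510 without replicate 5 and 1761 of 15469 without replicate 7. Without sham replicate 3 or 4 they were 1324 of 15507 and 1360 of 15491. Whole marrow mixes many cell types, and more cells of a type cannot be told apart from more RNA per cell. In the same comparison all 15 neutrophil markers and 10 of 11 monocyte markers rose, and 12 of 15 resident macrophage markers fell. Their part in the lysosomal counts was not tested.

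When burned mice received anti-G-CSF antibodies in place of the isotype, most of the lysosomal genes fell. Lamp2 again showed the greatest difference, at 242 ± 22.7 CPM with anti-G-CSF and 425 ± 60.3 CPM in burn isotype marrow (SD, n = 4 each), or 0.571 times the burn isotype level. The tetraspanin Cd63, the sialidase Neu1, the beta-hexosaminidase subunit Hexa and progranulin fell as well, to 0.606, 0.637, 0.641 and 0.658 times the burn isotype level. Cathepsin B (Ctsb) was the exception and rose, to 1.21 times. In all, 20 of 32 genes (62.5%) passed downward, where 16.9% of all genes tested fell, and 1 (3.12%) passed upward, where 17.7% rose; in either direction 34.6% of all genes passed.

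The median log2 fold change of the 32 genes was -0.34, against 0.08 over all genes tested, and the range was -0.81 to 0.28. Every anti-G-CSF library lay below every burn isotype library for 12 genes, where 16% of all genes did so. Every one lay above for 1 gene, Ctsb, where 13% did. Without replicates 9 and 12 the counts were 12 and 1. Fewer libraries separate more readily, and no share of all genes was taken there, so these counts cannot be set against 16% and 13%. Among genes at least as abundant as Gla 25.6% were called lower and 18.2% higher. Both anti-G-CSF and sham marrow were compared with the same burn isotype libraries, so the burn and antibody comparisons share them. Without replicates 9 and 12, the libraries with the most brain RNA, 9 genes passed downward, namely Asah1, Cd63, Ctsh, Grn, Gusb, Hexa, Lamp2, Neu1 and Tcirg1, 0 passed upward, and the median was -0.26; over all genes 11.1% then passed downward and 8.21% upward. With the mean log2 level of the 18 brain genes as a covariate, 7 of these remained, without Asah1 and Ctsh, and the median was -0.17. In that fit 1 member passed upward, and of all 15283 genes 1549 passed downward and 1350 upward. The covariate was 5.17 to 6.09 in anti-G-CSF libraries and 3.96 to 5.29 in burn isotype libraries. It therefore cannot be fully told apart from the group difference. Without replicate 5 the count of members lower was 12, without replicate 9 it was 12 and without replicate 10 it was 13. All genes called lower in these fits were 2117 of 15510, 2103 of 15417 and 2347 of 15479. Of 18 brain markers 11 rose with anti-G-CSF, as did 8 of 9 heart markers. All 15 neutrophil markers and 8 of 11 monocyte markers fell, and 12 of 15 resident macrophage markers rose. These counts without replicates 9 and 12 were 1 of 18, 0 of 9, 15 of 15, 7 of 11 and 12 of 15. Their part in the lysosomal counts was not tested.

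In burned mice given anti-G-CSF, set against sham mice, 2 of the 32 genes passed, Cd63 and Neu1, both lower, and 0 passed upward. Cd63 averaged 124 ± 17.3 CPM with anti-G-CSF and 190 ± 20.1 CPM in sham marrow, and Neu1 averaged 56.8 ± 5.65 CPM with anti-G-CSF and 73.4 ± 5.88 CPM in sham marrow (SD, n = 4 each). The 2 calls are 6.25% of the 32 genes, against 3.91% of all genes called lower and 7.09% called higher (11% in either direction). Among genes at least as abundant as Gla these shares were 6.16% and 3.76%. The median log2 fold change was -0.06, against 0 over all genes, and the range was -0.61 to 0.12. All anti-G-CSF libraries lay below all sham libraries for 4 genes, Cd63, Neu1, Npc2 and Glb1, where 6.96% of all genes did, and above for 0 genes, where 10.1% did. Neither call was made without replicates 9 and 12 or with the brain covariate. Over all genes these 2 fits called 18 and 10 genes higher and 17 and 4 genes lower. The first fit keeps only replicates 10 and 11 of the anti-G-CSF group, so it can call fewer genes. The mean log2 level of the brain genes was 5.17 to 6.09 in anti-G-CSF libraries and 4.42 to 4.73 in sham libraries. The covariate therefore cannot be told apart from the group difference, and the cause of the lost calls was not tested. In this comparison 14 of 15 neutrophil markers fell, 12 of 18 brain and 9 of 9 heart markers rose, and 0 of 15 resident macrophage markers passed. Of 11 monocyte markers 2 rose, Vcan and Nr4a1, and 1 fell, Ly6c2. Without replicates 9 and 12 the counts for the first 3 lists were 2, 0 and 0. Their part was not tested.

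**Figure D1:**
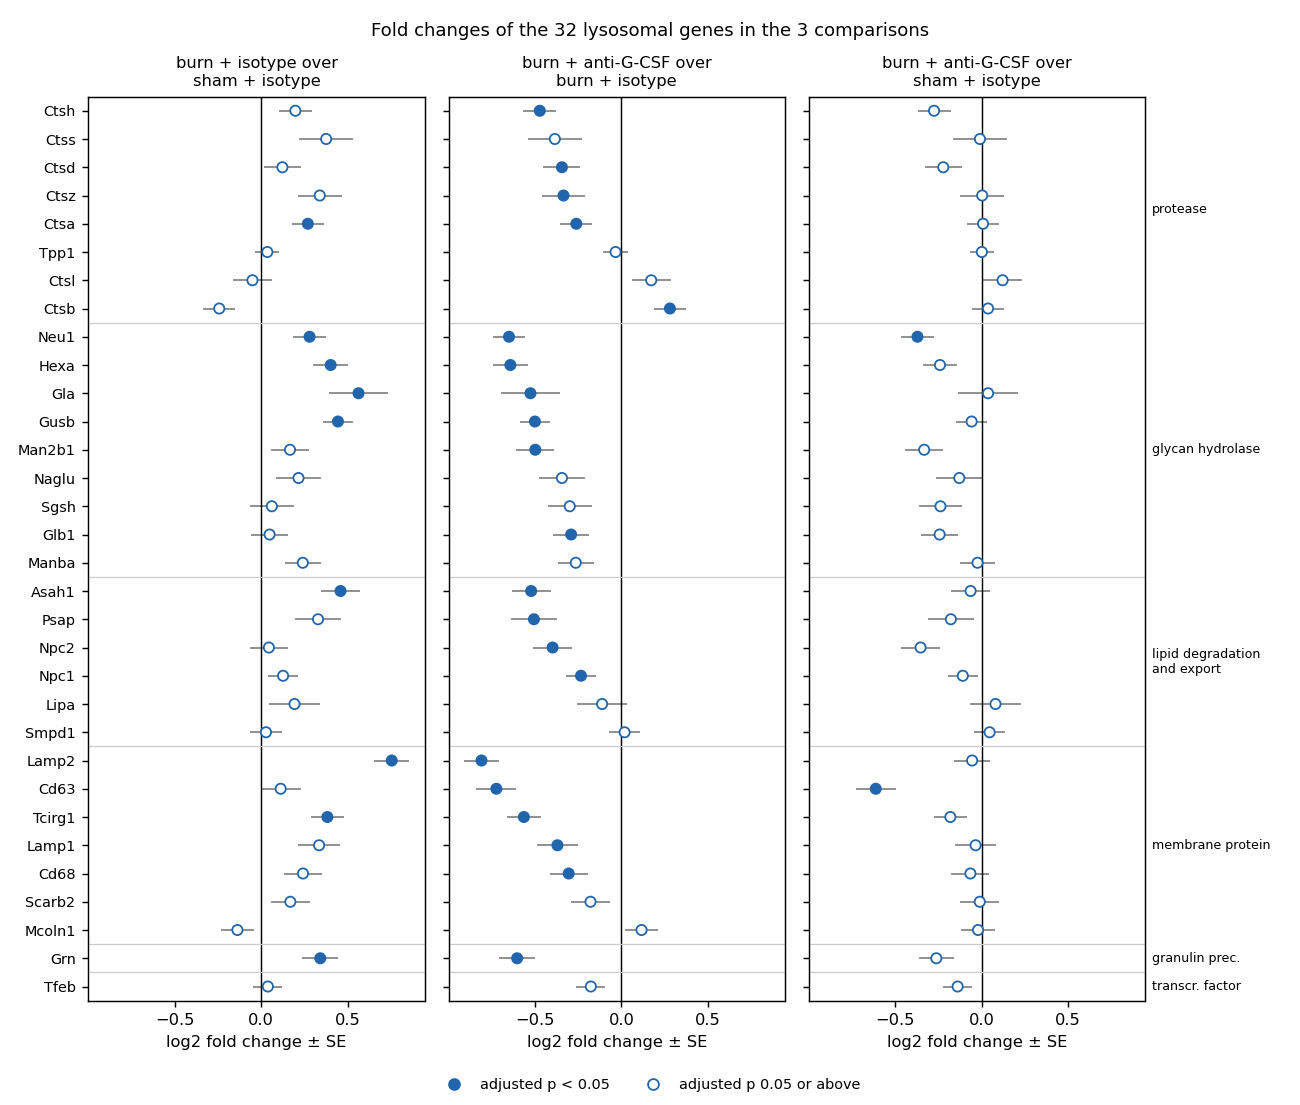
Log2 fold changes (x axis, bars are SE) of the 32 lysosomal genes (y axis, by role) in burn isotype over sham, burn anti-G-CSF over burn isotype, and burn anti-G-CSF over sham marrow, with filled points for an adjusted p below 0.05 in edgeR's quasi-likelihood test. Filled points lie right of 0 for 9 genes in the first panel, left of 0 for 20 genes and right for Ctsb in the second, and left of 0 for Cd63 and Neu1 in the third.

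The membrane proteins showed the widest range of changes, with 2 of 7 higher after the burn, 5 of 7 lower with anti-G-CSF relative to burn isotype, and 1 of 7 lower relative to sham. Of all genes 11.1%, 16.9% and 3.91% passed in these directions. Without replicates 9 and 12 the last 2 counts were 3 of 7 (Lamp2, Cd63 and Tcirg1) and 0 of 7. Of all 15598 genes tested in that fit, 1739 were lower relative to burn isotype and 17 relative to sham. Lamp2 (Entrez gene 16784, chrX:38405049-38456460, minus strand, mm10) stood at 209, 257, 253 and 251 CPM in anti-G-CSF replicates 9, 10, 11 and 12, at 508, 430.3, 379.6 and 381 CPM in burn isotype replicates 5, 6, 7 and 8, and at 289, 245, 240.2 and 233 CPM in sham replicates 1, 2, 3 and 4. All burn isotype libraries lay above all libraries of the other groups, which overlapped each other. The log2 fold change was 0.75 ± 0.10 (SE) over sham (adjusted p = 6.26e-05) and -0.81 ± 0.10 for anti-G-CSF over burn isotype (adjusted p = 9.65e-06), the largest of the 32 genes in each. Values per library are given in the same replicate order for every gene that follows.

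Lamp1 (Entrez gene 16783, chr8:13159161-13175338, plus strand), the other major glycoprotein of the lysosomal membrane, stood at 361, 422, 484 and 434 CPM with anti-G-CSF, 690, 549, 465 and 494 CPM in burn isotype and 483, 469, 392 and 399 CPM in sham marrow. Replicate 5 was far above the rest, and the groups overlapped in each comparison. It fell with anti-G-CSF by 0.37 on the log2 scale relative to burn isotype (SE 0.12, adjusted p = 0.0243). This call was lost without replicate 5, 9, 10 or 12, and without replicates 9 and 12 together. It was also lost with library-size scaling and with the brain covariate (adjusted p in all 21 alternatives 0.00645 to 0.437). The difference of burn isotype from sham, 0.33 ± 0.12, did not pass (adjusted p = 0.0559). Its promoter is the one with 4 TCACGTG matches.

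Cd63 (Entrez gene 12512, chr10:128909345-128912818, plus strand), a tetraspanin of late endosomes and of neutrophil azurophil granules, stood at 109, 110.5, 143 and 135 CPM with anti-G-CSF, 231, 220.2, 161 and 209 CPM in burn isotype and 192, 177, 174 and 218 CPM in sham marrow. The anti-G-CSF libraries lay below all others, and burn isotype and sham overlapped. It fell by 0.72 relative to burn isotype (SE 0.12, adjusted p = 0.000134) and by 0.61 relative to sham (SE 0.12, adjusted p = 0.0083), whereas burn isotype differed from sham by 0.11 ± 0.12 (adjusted p = 0.564). Over the 21 alternatives the adjusted p for the difference from sham was 5.06e-05 to 0.713.

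Tcirg1 (Entrez gene 27060, chr19:3896050-3907133, minus strand), the a3 subunit of the V-ATPase, the pump that acidifies lysosomes and osteoclast pits, stood at 140, 178, 164 and 132 CPM with anti-G-CSF, 255, 240.4, 203 and 210.5 CPM in burn isotype and 162, 179, 170.2 and 186 CPM in sham marrow. All burn isotype libraries lay above the rest, and the other groups overlapped. It rose by 0.38 ± 0.10 after the burn (adjusted p = 0.00815) and fell with anti-G-CSF by 0.56 (SE 0.10, adjusted p = 0.000219). Of the remaining membrane proteins, the macrophage glycoprotein macrosialin (Cd68) was lower with anti-G-CSF than in burn isotype by 0.31 on the log2 scale (adjusted p = 0.0395, and 0.00277 to 0.577 over the alternatives). Scarb2, the receptor that carries beta-glucocerebrosidase to lysosomes, and the calcium channel Mcoln1 passed in no comparison, with log2 fold changes between -0.18 and 0.17. Mcoln1 was the only membrane protein whose estimate was above 0 with anti-G-CSF relative to burn isotype, at 0.12 ± 0.10 (adjusted p = 0.371).

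**Figure D2:**
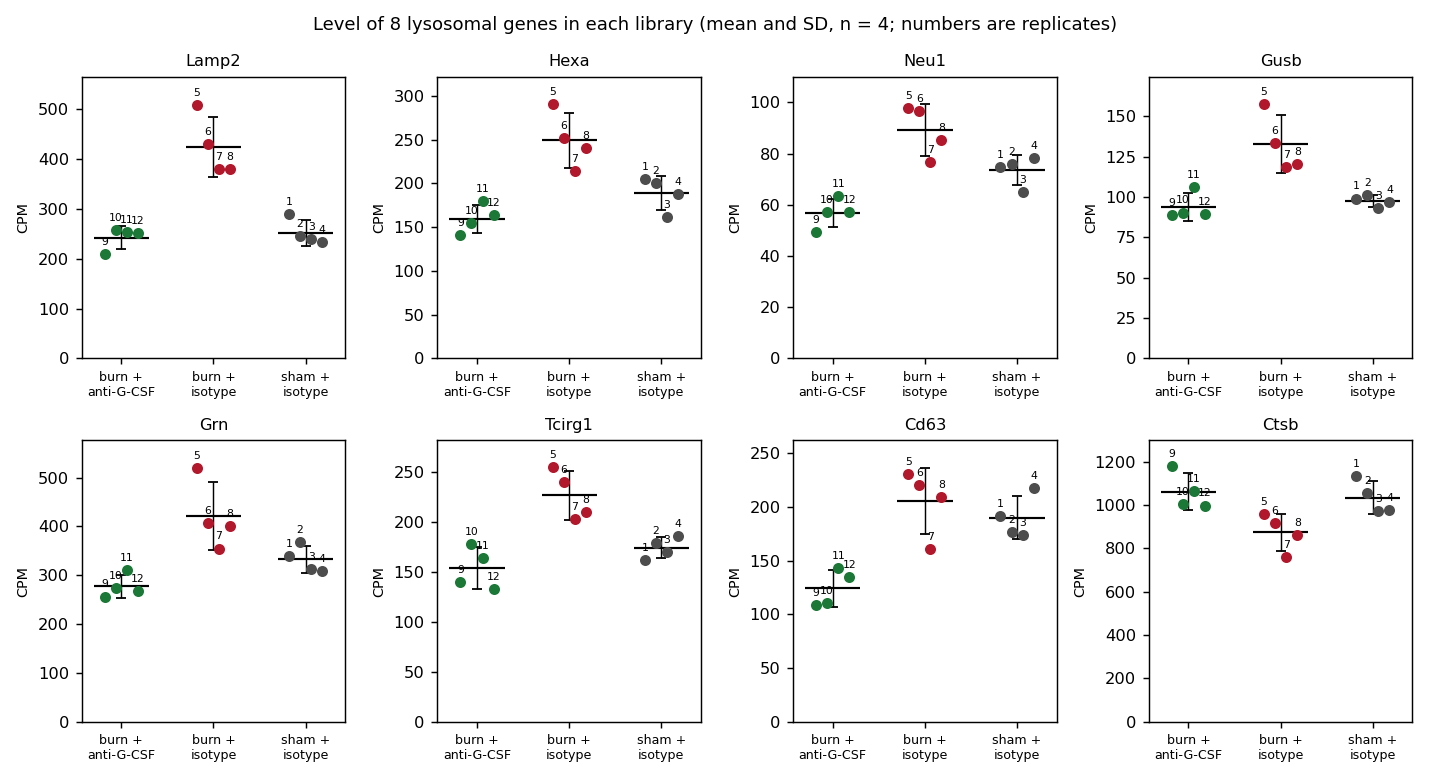
CPM (y axis, from 0) of 8 lysosomal genes in each library of burn anti-G-CSF, burn isotype and sham marrow, with points numbered by replicate and lines for the mean and SD of 4 libraries. The 4 burn isotype libraries stand above all others for Lamp2, Hexa, Gusb and Tcirg1, the anti-G-CSF libraries below all others for Cd63 and Neu1, and the burn isotype libraries below all others for Ctsb.

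Among the 9 enzymes that cleave sugar chains, 4 rose after the burn and 6 fell with anti-G-CSF relative to burn isotype, and the medians of the 9 log2 fold changes were 0.24 and -0.50. Of all genes 11.1% rose and 16.9% fell in these comparisons. Hexa, Gusb and Neu1 fell with anti-G-CSF without replicates 9 and 12, 3 of the 9, where 1739 of all 15598 genes fell. Hexa (Entrez gene 15211, chr9:59539540-59565109, plus strand), the alpha subunit of beta-hexosaminidase A, which degrades GM2 ganglioside, stood at 141, 155, 179 and 163 CPM with anti-G-CSF, 290.1, 252, 214 and 240.4 CPM in burn isotype and 205, 200.2, 162 and 188 CPM in sham marrow. All burn isotype libraries lay above the rest, while the other groups overlapped. Hexa rose by 0.40 ± 0.10 after the burn (adjusted p = 0.00714) and fell with anti-G-CSF by 0.64 (SE 0.10, adjusted p = 8.28e-05).

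Gusb (Entrez gene 110006, chr5:129989021-130002828, minus strand), the beta-glucuronidase of glycosaminoglycan breakdown, stood at 88.9, 90.4, 106 and 89.5 CPM with anti-G-CSF, 158, 134, 119 and 121 CPM in burn isotype and 99.1, 101, 93.0 and 97.1 CPM in sham marrow. Here too every burn isotype library exceeded every other library, and replicate 11 stood above the other anti-G-CSF libraries. The log2 fold change was 0.44 ± 0.09 after the burn (adjusted p = 0.00149) and -0.50 ± 0.09 with anti-G-CSF (adjusted p = 0.000302).

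Neu1 (Entrez gene 18010, chr17:34931253-34937297, plus strand), the lysosomal sialidase, stood at 49.5, 57.1, 63.2 and 57.3 CPM with anti-G-CSF, 98.0, 96.7, 76.7 and 85.2 CPM in burn isotype and 74.7, 76.1, 64.9 and 78.1 CPM in sham marrow. The anti-G-CSF libraries lay below all others, and burn isotype overlapped sham through its lowest library, replicate 7. Neu1 fell with anti-G-CSF by 0.65 relative to burn isotype (SE 0.09, adjusted p = 3.61e-05) and by 0.37 relative to sham (SE 0.09, adjusted p = 0.0222, and 0.00394 to 0.976 over the alternatives), and rose by 0.28 ± 0.09 after the burn (adjusted p = 0.0395). The call after the burn held in 3 of the 12 fits that left out a single library.

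Gla (Entrez gene 11605, chrX:134588169-134601005, minus strand), the alpha-galactosidase A that is deficient in Fabry disease, was the least abundant member in CPM. It stood at 10.2, 12.0, 9.62 and 12.3 CPM with anti-G-CSF, 22.8, 14, 12.6 and 14.1 CPM in burn isotype and 12.0, 11.4, 10.3 and 9.25 CPM in sham marrow. Replicate 5 was well above the other burn isotype libraries, and all of these still exceeded every other library. It rose by 0.56 ± 0.17 after the burn (adjusted p = 0.0263) and fell by 0.53 with anti-G-CSF (SE 0.17, adjusted p = 0.0258). Neither call was made without replicate 5 or with library-size scaling. The first was also lost without sham replicate 2, 3 or 4. The second was also lost without replicate 9 or 11, without replicates 9 and 12 together and with the brain covariate.

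Cathepsin A, the partner protein that stabilises Neu1 and Glb1, is described with the proteases. The lysosomal alpha-mannosidase Man2b1 fell with anti-G-CSF by 0.50 (adjusted p = 0.0018), a call that was lost without replicates 9 and 12 and with the brain covariate. The beta-galactosidase Glb1 fell by 0.29 (adjusted p = 0.0407), a call made in 8 of the 21 alternatives (adjusted p 0.0154 to 0.644) and in neither of those fits. Beta-mannosidase (Manba), Naglu and Sgsh, enzymes of glycoprotein and heparan sulfate breakdown, passed in no comparison. Their estimates were -0.26, -0.34 and -0.30 with anti-G-CSF relative to burn isotype, and 0.24, 0.22 and 0.06 for burn isotype relative to sham.

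Of the proteases 1 of 8 rose after the burn, and with anti-G-CSF 4 of 8 fell and 1 of 8 rose relative to burn isotype. Of all genes 11.1% rose after the burn, and 16.9% fell and 17.7% rose with anti-G-CSF. Ctsh alone fell with anti-G-CSF without replicates 9 and 12, 1 of 8, and 0 of 8 rose. Of all 15598 genes tested in that fit 1739 fell and 1280 rose. Ctsb (Entrez gene 13030, chr14:63122462-63145923, plus strand), an abundant cysteine protease, stood at 1181, 1003, 1064 and 998 CPM with anti-G-CSF, 957, 915, 762 and 862 CPM in burn isotype and 1135, 1056, 971 and 978 CPM in sham marrow. All burn isotype libraries lay below all others, the reverse of Lamp2, and the other groups overlapped. Ctsb rose by 0.28 ± 0.09 with anti-G-CSF (adjusted p = 0.0243, and 0.000102 to 0.117 over the alternatives), while the difference of burn isotype from sham, -0.24 ± 0.09, did not pass (adjusted p = 0.0665). The call for anti-G-CSF was lost without replicates 9 and 12 and in a fit of only the groups compared.

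Ctsh (Entrez gene 13036, chr9:90054267-90076095, plus strand), an aminopeptidase of the same papain family, stood at 158, 179, 204 and 177 CPM with anti-G-CSF, 286, 261, 213 and 236 CPM in burn isotype and 229, 226, 197 and 217 CPM in sham marrow. The anti-G-CSF libraries lay below all burn isotype libraries, and replicate 11 reached into the sham range. It fell with anti-G-CSF by 0.47 (SE 0.10, adjusted p = 0.000908), with burn isotype at 0.20 ± 0.10 relative to sham (adjusted p = 0.167).

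Ctsd (Entrez gene 13033, chr7:142375916-142387870, minus strand), whose promoter stretch is shown, stood at 627, 569, 688 and 652 CPM with anti-G-CSF, 913, 903, 670.5 and 733 CPM in burn isotype and 838, 766, 659.5 and 694 CPM in sham marrow. Replicates 5 and 6 were high and 7 and 8 lower, so that burn isotype overlapped both other groups. It fell with anti-G-CSF by 0.34 (SE 0.11, adjusted p = 0.0199), a call that was lost without replicate 5, without replicates 9 and 12 and with the brain covariate (adjusted p in the alternatives 0.00318 to 0.471), and did not pass after the burn (0.12 ± 0.11, adjusted p = 0.485).

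Ctsa (Entrez gene 19025, chr2:164833773-164841032, plus strand) stood at 150.4, 172, 176 and 164 CPM with anti-G-CSF, 237, 201, 168 and 190 CPM in burn isotype and 177, 171, 155 and 156 CPM in sham marrow. The groups overlapped, with replicate 7 inside the range of both. It rose by 0.27 ± 0.09 after the burn (adjusted p = 0.0475, and 0.0105 to 0.207 over the alternatives) and fell by 0.26 with anti-G-CSF (SE 0.09, adjusted p = 0.0379, and 0.00781 to 0.609 over the alternatives).

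Ctss (Entrez gene 13040, chr3:95526786-95556405, plus strand), the cathepsin that trims the invariant chain in antigen-presenting cells, stood at 249, 294, 351 and 294 CPM with anti-G-CSF, 476, 421, 302 and 354 CPM in burn isotype and 364, 335, 247 and 252 CPM in sham marrow. All groups overlapped, and the spread within burn isotype was wide. Its log2 fold change after the burn, 0.38 ± 0.16, had the largest size of the 8 proteases and did not pass (adjusted p = 0.11), nor did that with anti-G-CSF, -0.39 ± 0.16 (adjusted p = 0.0685). Cathepsin Z (Ctsz) fell with anti-G-CSF by 0.34 (adjusted p = 0.0486, and 0.00385 to 0.867 over the alternatives). Cathepsin L (Ctsl) and tripeptidyl peptidase Tpp1 passed in no comparison, with estimates of 0.17 and -0.03 for anti-G-CSF relative to burn isotype.

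Of the 6 genes of lipid breakdown and export, 1 rose after the burn and 4 fell with anti-G-CSF, where 11.1% of all genes rose and 16.9% fell. Asah1 alone fell without replicates 9 and 12, 1 of 6, where 1739 of all 15598 genes fell. Asah1 (Entrez gene 11886, chr8:41340646-41374697, minus strand), the acid ceramidase, stood at 91.7, 107, 113 and 122 CPM with anti-G-CSF, 190.4, 164, 135 and 133 CPM in burn isotype and 115, 126, 107 and 106 CPM in sham marrow. All burn isotype libraries lay above the rest, and the other groups overlapped. Asah1 rose by 0.46 ± 0.11 after the burn (adjusted p = 0.00693) and fell by 0.52 with anti-G-CSF (SE 0.11, adjusted p = 0.00173), and this second call was lost only with the brain covariate (adjusted p = 0.0695).

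Psap (Entrez gene 19156, chr10:60277628-60302600, plus strand) stood at 1739, 1975, 2308 and 2112 CPM with anti-G-CSF, 3803, 2882, 2319 and 2548 CPM in burn isotype and 2512, 2485, 2111 and 2093 CPM in sham marrow. Replicate 5 held far more than any other library, and the lowest burn isotype library was just above the highest anti-G-CSF library. It fell with anti-G-CSF by 0.51 (SE 0.14, adjusted p = 0.00815), a call that was lost without replicates 9 and 12 and with the brain covariate, and did not pass after the burn (0.33 ± 0.14, adjusted p = 0.0997).

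Npc2 (Entrez gene 67963, chr12:84754559-84773112, minus strand), which hands cholesterol to the membrane protein NPC1 for export, stood at 204, 236, 258 and 229 CPM with anti-G-CSF, 369.9, 315, 245 and 293 CPM in burn isotype and 323, 322, 265 and 276 CPM in sham marrow. The anti-G-CSF libraries lay below all sham libraries but overlapped burn isotype through replicate 7. Npc2 fell relative to burn isotype by 0.40 (SE 0.11, adjusted p = 0.0112), a call that was lost with library-size scaling, without replicates 9 and 12 and with the brain covariate (adjusted p in the alternatives 0.00135 to 0.361). Its estimate relative to sham, -0.35 ± 0.11, narrowly missed the threshold (adjusted p = 0.0503). Npc1 fell by 0.23 with anti-G-CSF (adjusted p = 0.0455, and 0.0166 to 0.607 over the alternatives). The acid lipase Lipa and the acid sphingomyelinase Smpd1 passed in no comparison, with 0.19 and 0.03 after the burn and -0.11 and 0.02 with anti-G-CSF.

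Grn (Entrez gene 14824, chr11:102430322-102436809, plus strand) codes for progranulin, which is delivered to lysosomes and cut into granulins there. It stood at 256, 274, 310.5 and 268 CPM with anti-G-CSF, 520.1, 407, 355 and 402 CPM in burn isotype and 339, 367, 314 and 309 CPM in sham marrow. The anti-G-CSF libraries lay below all burn isotype libraries, and burn isotype overlapped sham through replicate 7. It rose by 0.34 ± 0.10 after the burn (adjusted p = 0.0238, and 0.00662 to 0.113 over the alternatives, with the call lost under library-size scaling and without replicate 5 or sham replicate 3 or 4) and fell with anti-G-CSF by 0.60 (SE 0.10, adjusted p = 0.000212).

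Tfeb (Entrez gene 21425, chr17:47785744-47792416, plus strand) stood at 42.2, 50.3, 47.0 and 42.5 CPM with anti-G-CSF, 57.0, 52.5, 47.1 and 49.1 CPM in burn isotype and 54.0, 49.3, 49.9 and 47.1 CPM in sham marrow. The groups overlapped in each comparison. None passed, with log2 fold changes of 0.04 ± 0.08 after the burn (adjusted p = 0.806), -0.18 ± 0.08 with anti-G-CSF relative to burn isotype (adjusted p = 0.108) and -0.14 ± 0.08 relative to sham (adjusted p = 0.326). These are RNA levels, and TFEB is known to be controlled mainly by phosphorylation and location in the cell, which were not measured. The 8 members with TCACGTG in the promoter window had a median log2 fold change of 0.17 after the burn and -0.32 with anti-G-CSF, and the 20 without it 0.24 and -0.39. With anti-G-CSF 5 of the 8 and 12 of the 20 fell, against 16.9% of all genes. Without replicates 9 and 12 these counts were 0 of 8 and 7 of 20, against 1739 of all 15598 genes then tested. That fit keeps only replicates 10 and 11 of the anti-G-CSF group. This split is a description of letters in a window and was not tested.

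**Figure D3:**
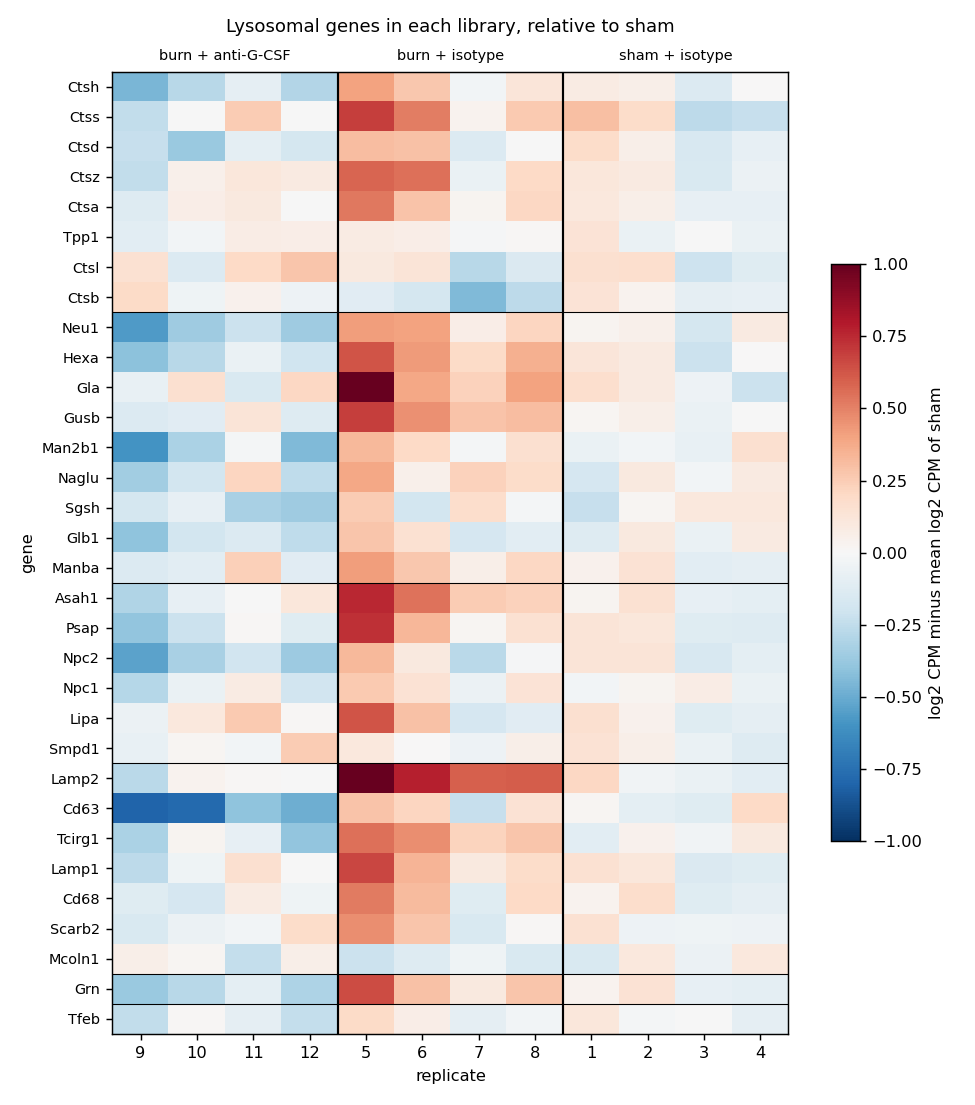
Log2 CPM of each of the 32 lysosomal genes (rows, by role) in each library (columns, burn anti-G-CSF, burn isotype, sham) minus the gene's mean log2 CPM in sham marrow, red for higher and blue for lower. Replicate 5 is the reddest column, as the highest burn isotype library for 30 of 32 genes, Lamp2 is red in all 4 burn isotype libraries, and Cd63 is blue in all 4 anti-G-CSF libraries.

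Summed over the 32 genes the level was 6764, 7211, 8137 and 7411 CPM with anti-G-CSF, 11570, 9842, 7972 and 8813 CPM in burn isotype and 8796, 8564, 7490 and 7732 CPM in sham marrow. The anti-G-CSF and burn isotype sums overlapped through replicates 11 and 7, and burn isotype overlapped sham. Psap alone held 2888 ± 652 CPM of the burn isotype mean of 9549 ± 1549 CPM (SD, n = 4). The glycan hydrolase sums did not overlap between anti-G-CSF, at 657 to 886 CPM, and burn isotype, at 949.7 to 1234 CPM, while the protease sums did, at 2517 to 2810 CPM with anti-G-CSF and 2398 to 3259 CPM in burn isotype. No test was made on these sums.

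**Figure D4:**
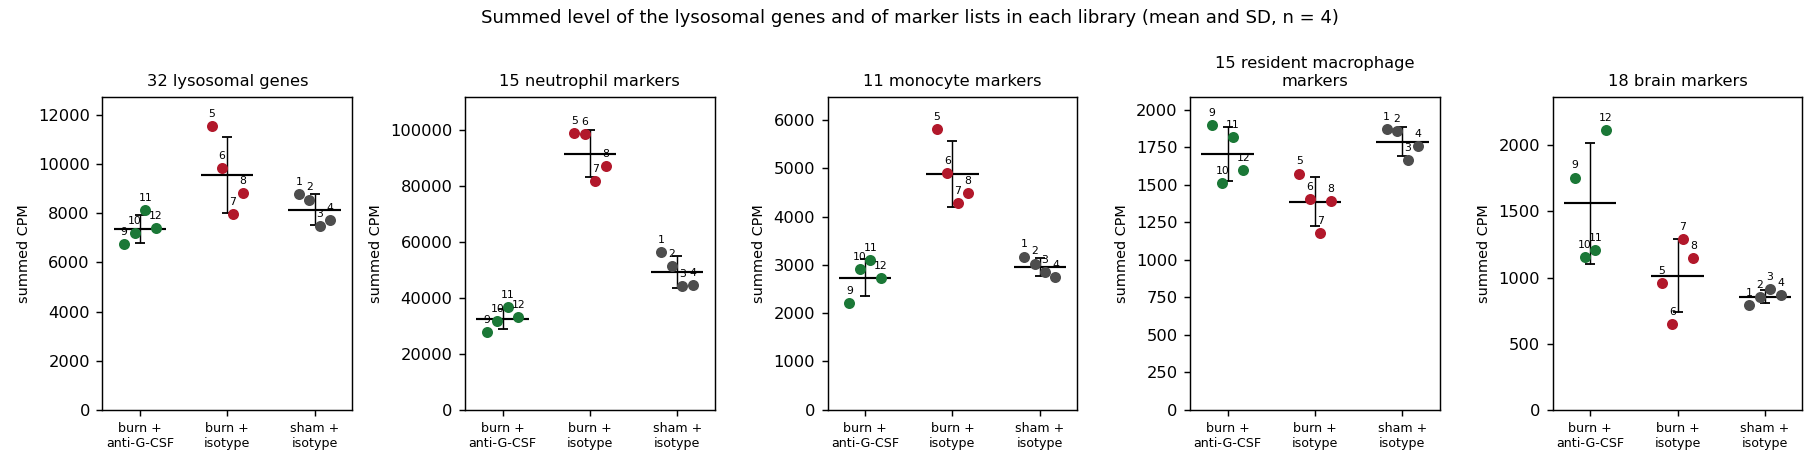
Summed CPM (y axis, from 0) of the 32 lysosomal genes and of 4 marker lists in each library of burn anti-G-CSF, burn isotype and sham marrow, with points numbered by replicate and lines for the mean and SD of 4 libraries. Neutrophil and monocyte sums are highest in all 4 burn isotype libraries, the macrophage sums there lie below both other groups' means, and the brain sums are highest in replicates 12 and 9.

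The neutrophil sum was 27860 to 36600 CPM with anti-G-CSF, 81850 to 98880 CPM in burn isotype and 44350 to 56330 CPM in sham marrow. Besides granule genes its list includes S100a8 and S100a9, which are cytosolic, and the surface receptors Cxcr2 and Csf3r. S100a8 and S100a9 averaged 22680 and 21050 CPM in burn isotype marrow, where the sum averaged 91540 CPM. The monocyte sum was 2212 to 3096 CPM with anti-G-CSF, 4282 to 5825 CPM in burn isotype and 2740 to 3174 CPM in sham marrow. For both lists the burn isotype libraries stood above all others without overlap. The resident macrophage sum was 1514 to 1897 CPM with anti-G-CSF, 1177 to 1575 CPM in burn isotype and 1663 to 1870 CPM in sham marrow. It ran the other way, with burn isotype below sham in every library. All 13 erythroid and all 10 B cell markers fell after the burn and rose with anti-G-CSF relative to burn isotype. Of the 8 osteoclast markers 4 were tested, and the others had at most 0.73 CPM in any library. Mmp9 rose after the burn and fell with anti-G-CSF, and Acp5 did the reverse. These genes are not separate evidence, since Mmp9 is also in the neutrophil list and Acp5 among the other hydrolases below. Atp6v0d2, also tested, is among the V-ATPase subunits as well. None of the markers in these lists was at 0 in all libraries. In burn isotype marrow replicate 5 had the highest sum of the 32 lysosomal genes and also of the monocyte, macrophage and neutrophil lists, and replicate 7 had the lowest of each; the part of these cells in the lysosomal values was not tested.

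A further 94 lysosome genes were listed by role, of which 93 were tested, and Atp6v0c, a proton pore subunit, had 1 count in all libraries together. After the burn 30 rose (32.3%, against 11.1% of all genes) and 5 fell (5.38%, against 9.92%), and their median log2 fold change was 0.14. With anti-G-CSF relative to burn isotype 8 rose (8.6%, against 17.7%) and 41 fell (44.1%, against 16.9%), with a median of -0.22. Relative to sham 1 rose and 5 fell, against 7.09% and 3.91% of all genes. Without replicates 9 and 12, 6 rose and 26 fell relative to burn isotype, and 0 passed relative to sham. Of all 15598 genes tested in that fit, 1280 rose and 1739 fell relative to burn isotype. Library-size scaling gave 20 higher and 26 lower relative to burn isotype, with a median of -0.04 where that of all genes was 0.26, and 4 higher and 4 lower relative to sham. Of all 15283 genes that scaling called 5762 higher and 1673 lower relative to burn isotype, and 1294 and 376 relative to sham.

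Among the V-ATPase subunits, which form the proton pump with Tcirg1, 6 of 16 rose after the burn and 7 of 16 fell with anti-G-CSF (5 without replicates 9 and 12). The shares of all genes were 11.1% and 16.9%. Without replicates 9 and 12, 1739 of all 15598 genes fell with anti-G-CSF. Atp6v1a, a catalytic subunit, rose by 0.60 ± 0.09 (adjusted p = 0.000189) and Atp6v1b2 by 0.54 ± 0.10 (adjusted p = 0.000744). With anti-G-CSF Atp6v1g1 fell by 0.49 (adjusted p = 8.61e-05) and Atp6v0b by 0.40 (adjusted p = 0.000118). Relative to sham none of the 16 passed, and these last 2 subunits had -0.21 and -0.15.

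Of 30 other hydrolases and activators, 7 rose and 3 fell after the burn, and 4 rose and 11 fell with anti-G-CSF (3 and 8 without replicates 9 and 12). Over all genes 11.1% rose and 9.92% fell after the burn, and 17.7% rose and 16.9% fell with anti-G-CSF. Without replicates 9 and 12, 1280 of all 15598 genes rose and 1739 fell with anti-G-CSF. Cathepsin C (Ctsc), the dipeptidyl peptidase that activates neutrophil serine proteases, rose after the burn by 1.076 ± 0.13 (adjusted p = 5.3e-05) and fell with anti-G-CSF by 0.56 (adjusted p = 0.00415). It averaged 217 ± 14.02 CPM with anti-G-CSF, 319.9 ± 69.9 CPM in burn isotype and 152 ± 24.1 CPM in sham marrow (SD, n = 4 each). Relative to sham it was higher with anti-G-CSF by 0.52 ± 0.13 (adjusted p = 0.0257), a call that was not made without replicates 9 and 12 (adjusted p = 0.281) or with the brain covariate (adjusted p = 0.501). Galns, a sulfatase of keratan sulfate breakdown, fell with anti-G-CSF by 0.89 relative to burn isotype (adjusted p = 1.76e-06) and by 0.31 relative to sham (adjusted p = 0.0479). The call relative to sham was made in 8 of the 21 alternatives, with an adjusted p of 0.379 without replicates 9 and 12.

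Of 19 other membrane proteins, 6 rose and 1 fell after the burn, and 1 rose and 9 fell with anti-G-CSF (2 and 5 without replicates 9 and 12). The shares of all genes were 11.1% and 9.92% after the burn and 17.7% and 16.9% with anti-G-CSF. Without replicates 9 and 12, 1280 of all 15598 genes rose and 1739 fell with anti-G-CSF. Litaf, a late endosomal protein, rose by 0.63 ± 0.11 after the burn (adjusted p = 0.000498) and fell with anti-G-CSF by 1.06 relative to burn isotype (adjusted p = 1.37e-06) and by 0.43 relative to sham (adjusted p = 0.0232). Cln3, a lysosomal storage disease gene, rose by 0.39 ± 0.07 (adjusted p = 0.000745) and fell by 0.81 (adjusted p = 2.17e-07) and by 0.42 relative to sham (adjusted p = 0.00569). The peptide transporter Slc15a3, named because it completes the count of 5 genes lower than sham and so chosen after its values were seen, fell by 0.49 relative to sham (adjusted p = 0.0291). Without replicates 9 and 12 none of these 3 calls relative to sham was made, with adjusted p of 0.313 for Litaf, 0.125 for Cln3 and 0.379 for Slc15a3, nor was any made with the brain covariate.

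Of 12 genes that sort enzymes to lysosomes, 6 rose and 1 fell after the burn, and 1 rose and 7 fell with anti-G-CSF (1 and 4 without replicates 9 and 12). Among all genes 11.1% rose and 9.92% fell after the burn, and 17.7% rose and 16.9% fell with anti-G-CSF. Without replicates 9 and 12, 1280 of all 15598 genes rose and 1739 fell with anti-G-CSF. The sorting receptor Sort1 rose by 0.61 ± 0.09 (adjusted p = 0.000106) and fell by 0.73 with anti-G-CSF (adjusted p = 5.99e-06), and the mannose 6-phosphate receptor Igf2r fell by 0.57 with anti-G-CSF (adjusted p = 1.18e-05). The Golgi adaptor Gga2 was the one that fell after the burn, by 0.57 (adjusted p = 0.00196). Relative to sham none of the 12 passed with anti-G-CSF, with Igf2r at -0.23 and Gga3, a related adaptor, at -0.16.

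Of 16 relatives and regulators of TFEB, 5 rose after the burn, and 2 rose and 7 fell with anti-G-CSF (0 and 4 without replicates 9 and 12). For all genes the shares were 11.1% higher after the burn, and 17.7% higher and 16.9% lower with anti-G-CSF. Without replicates 9 and 12, 1280 of all 15598 genes rose and 1739 fell with anti-G-CSF. Tfeb's relative Tfe3 rose by 0.54 ± 0.08 after the burn (adjusted p = 0.000196) and fell by 0.74 with anti-G-CSF (adjusted p = 3.37e-06). Tfec, a relative found in myeloid cells, rose by 0.73 ± 0.11 (adjusted p = 0.000188) and fell by 0.74 (adjusted p = 6.86e-05). Whether Tfeb and these relatives differ from each other was not tested. Lamtor4, a subunit of the Ragulator complex that anchors mTORC1 on lysosomes, fell with anti-G-CSF by 0.74 relative to burn isotype (adjusted p = 1.56e-05) and by 0.35 relative to sham (adjusted p = 0.0317). The call relative to sham was not made without replicates 9 and 12 (adjusted p = 0.306) or with the brain covariate (adjusted p = 0.963). Folliculin (Flcn) differed from sham by -0.19 and did not pass.

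**Figure D5:**
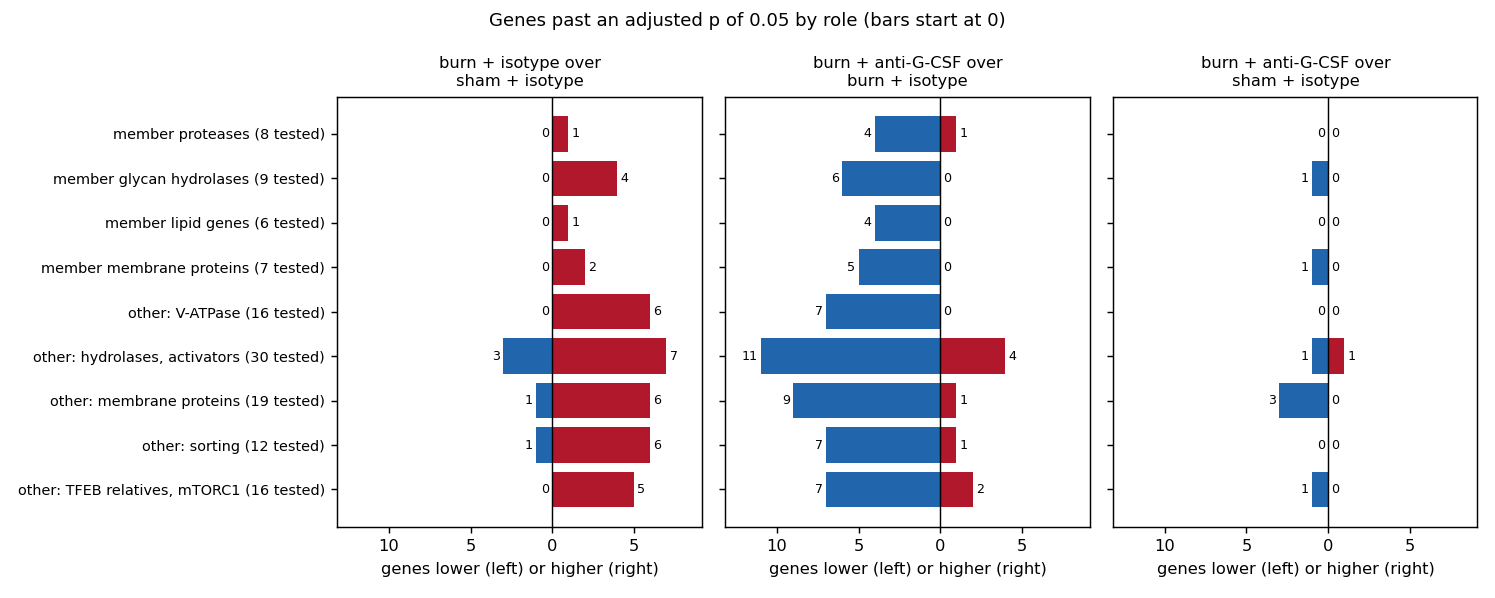
Number of genes past an adjusted p of 0.05 in edgeR's quasi-likelihood test, lower to the left and higher to the right (x axis, from 0), by role (y axis, with the number tested) in burn isotype over sham, burn anti-G-CSF over burn isotype, and burn anti-G-CSF over sham marrow. After the burn most calls are higher, with anti-G-CSF relative to burn isotype most are lower, with 11 of 30 other hydrolases the longest bar, and relative to sham no role has over 3 calls in a direction.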

How the data were processed

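Whole bone marrow RNA of 12 libraries was measured. Per the labels' protocols, total RNA was selected for polyadenylated RNA and made into strand-specific libraries. The authors deposited raw counts for each gene. The submitters' processing notes name TopHat2 and mm10; how reads were counted, and on which annotation, is not given in the sources used here. The table has 11 rows with no gene name, left out. Chi-square tests of counts between the 18 pairs of libraries within groups gave 5.81 to 31.9 per degree of freedom, so no pair looked like 1 library deposited more than once. Gene starts were raised by 1, after comparison with RefSeq.

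Counts were fitted with edgeR 4.0.16 (R 4.3.3; filterByExpr, TMM scaling, robust quasi-likelihood test), with all 12 libraries in 1 fit and 1 mean per group, and p-values were adjusted over 15283 genes by Benjamini-Hochberg, with a threshold of 0.05. SE were derived from the F statistics. The script was tested on simulated data, with changes set in genes drawn at random from those tested. Of 50 genes changed 1.5-fold it recovered 26 for burn isotype against sham. For anti-G-CSF it recovered 23 against burn isotype and 28 against sham. Genes that did not pass may therefore still differ. The alternatives were DESeq2 1.42.0, limma-voom (limma 3.58.1), other scalings and filters, and leaving out libraries. The members and gene lists were chosen with earlier results of these data known. Values per library are given for Tfeb, Lamp1 and Lamp2, and for the 3 members of each role with the smallest p among those past the threshold and the largest fold change of each role in each comparison; of other lysosome genes, the 2 with the smallest p of each role are named, except 1 gene that is not reported here. Promoters came from RefSeq on GRCm38.p6. Figures were drawn with matplotlib 3.10.9.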

Additional observations from a re-analysis of the deposited data

Results flagged for a closer look

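In 6 of 96 sets of 4 libraries (32 genes in 3 groups), the highest or lowest library stood far from the other 3 by Dixon's criterion, where chance alone flags about 1 in 20, or 4.8 sets. In anti-G-CSF marrow, Gusb was at 106.5 CPM in replicate 11, with the nearest library at 90.4 CPM. Manba was at 40.4 CPM in replicate 11, with the nearest at 31.7 CPM. Mcoln1 was at 22.2 CPM in the same replicate, where it was lowest, with the nearest at 26.5 CPM. Lamp2 was at 208.7 CPM in replicate 9, below the nearest at 251 CPM. In burn isotype marrow, Gla was at 22.8 CPM in replicate 5, with the nearest at 14.1 CPM. In sham marrow, Scarb2, the beta-glucocerebrosidase receptor, was at 57.1 CPM in replicate 1, with the nearest at 49.9 CPM.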

How the results depend on the processing

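No paired analysis was possible because the replicate numbers 1 to 12 are not shared between groups. No called member changed direction in 2016 member fits under the alternatives, and 117 estimates past the threshold in neither fit changed sign. After the burn 5 of the 9 member calls held under all 21 alternatives, with anti-G-CSF relative to burn isotype 7 of 21, and relative to sham 0 of 2. Library-size scaling moved the median log2 fold change of all genes to -0.10 after the burn and 0.26 with anti-G-CSF relative to burn isotype; relative to those shifts the members' medians were 0.20 and -0.42, and unshifted the second was -0.16. It gave 5 members higher and 1 lower after the burn (2846 of all genes lower), 3 higher and 11 lower with anti-G-CSF relative to burn isotype (5762 and 1673 of all genes; 77.5% of calls higher against 51.1%), and 376 genes lower than sham. DESeq2's Wald test gave 1 member lower after the burn, and 5 members and 996 genes lower than sham; DESeq2 size factors and a fit of only the groups compared each gave 4 members lower than sham. The fit of only the groups compared gave 0 members and 1602 genes higher with anti-G-CSF relative to burn isotype. limma-voom gave 713 genes higher than sham.

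Without replicates 9 and 12 there were 1 member lower after the burn, 0 higher and 9 lower with anti-G-CSF relative to burn isotype (1280 genes higher), and 0 lower relative to sham (18 genes higher, 17 lower). The brain covariate gave 15 members higher after the burn. With anti-G-CSF relative to burn isotype it gave 1 member higher and 7 lower (median -0.17, with 1350 genes higher and 1549 lower). Relative to sham it gave 0 members lower (10 genes higher, 4 lower). The cause of these shifts was not tested. Leaving out each library gave 5 to 14 members higher and 0 to 1 lower after the burn (1275 to 1761 and 1077 to 1679 genes), 0 to 1 higher and 12 to 22 lower with anti-G-CSF relative to burn isotype (1639 to 3045 and 2103 to 2671 genes), and 0 higher and 1 to 5 lower relative to sham (148 to 1414 and 177 to 857 genes).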
